A study of Mus musculus with 6 samples.

Results

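The genes described here are 42 collagens, matrix glycoproteins, proteoglycans and cross-linking enzymes, with 1 cell surface protein, Lrrc15, among them. They were chosen by symbol, with earlier results of these data known, out of 17891 genes listed in the myocardium of at least 1 of 6 mouse samples. The samples are flash-frozen myocardium of C57BL/6 mice aged 6 weeks: 3 are wild type (WT) and 3 are NS-DADm, with no treatment named. The NS-DADm genotype is a knock-in, throughout the body, of mutations in the deacetylase activating domains (DADs) of nuclear receptor corepressors, NCOR among them, the domains through which these proteins activate the histone deacetylase HDAC3; the WT mice carry none of these alleles. The knock-in was not limited to a cell type, so every cell of the heart carries it. The comparison asked whether matrix genes differ in level between NS-DADm and WT myocardium, by fibrillar collagens (5 genes), basement membrane (15) and other matrix (22).

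The extracellular matrix of the heart holds the muscle together and passes on its force. Fibroblasts make most of the fibrillar collagen, types I and III, which forms the bundles between muscle cells and accumulates in fibrosis. Muscle cells and capillaries each sit on a basement membrane, a thin sheet of collagen IV and laminin networks tied together by nidogen and perlecan. The matricellular proteins tenascin C and thrombospondin are scarce in healthy adult heart. They and periostin are made after injury, while small proteoglycans such as decorin bind collagen fibrils and set their width.

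Total expected counts, the authors' estimates of reads per gene, were 10183792 to 11205221 in the WT and 12262523 to 12758311 in the NS-DADm samples, each NS-DADm library being deeper than each WT library. Nothing in the labels ties a sample to a mouse of its own, so a p-value here measures only the spread between samples, which may be technical. Ncor1, which encodes NCOR, stood at 23.30, 21.55 and 23.73 FPKM in WT samples 1 to 3 and at 23.13, 24.91 and 24.84 FPKM in NS-DADm samples 1 to 3 (log2 fold change 0.10, SE 0.06, adjusted p = 0.432); a knock-in mutation need not change the RNA level, so this does not check the labels. FPKM is the count scaled by gene length and by depth. The heart muscle marker Myl2, a ventricular myosin light chain, stood at 15371 to 21253 FPKM in all samples. Samples differed in atrial transcripts: WT 3, NS-DADm 1 and NS-DADm 3 had an atrial score of 7.48 to 8.06 (mean log2 CPM of 8 atrial genes, CPM being the count scaled to depth alone), against 3.07 to 4.33 in WT 1, WT 2 and NS-DADm 2. The atrial-rich libraries are therefore 1 of 3 in WT and 2 of 3 in NS-DADm. In whole tissue, fewer cells of a type and less RNA per cell cannot be told apart.

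Of the 42 matrix genes, all of which passed the low-count filter, 2 fell in NS-DADm myocardium, 0 rose and 40 did not pass the test. The 2 that fell were Lrrc15, a leucine-rich repeat membrane protein known as a marker of activated fibroblasts, and Pxdn, the peroxidase that cross-links collagen IV in basement membranes. Over all 13130 tested genes 3.2% were called, 1.79% higher and 1.41% lower. As the list was chosen with earlier results known, this and the next shares describe it and carry no test against all genes. At an unadjusted p under 0.05 stood 18 of the 42 matrix genes, 13 higher and 5 lower. Over all tested genes it was 2370 of 13130, or 18.1% (9.41% higher and 8.64% lower). Log2 fold changes were positive in 30 of 42, or 71.4%, with a median of 0.12, while 49.3% of all tested genes were positive, with a median of -0.00. The groups did not overlap in 12 of the 42 genes (28.6%), 7 of them higher in NS-DADm, against 23.4% of all tested genes (8.94% without overlap and higher, 14.5% without overlap and lower).

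Genes were tested with the quasi-likelihood test of edgeR, and p-values were adjusted over all tested genes by Benjamini-Hochberg, with a threshold of 0.05. For 29 of the 42 the 95% interval lay within a 1.5-fold difference in either direction, and for 17 within 1.3-fold. Over all 13130 tested genes it was 9130 and 6199, so matrix genes were not bounded more closely than other genes. The count of 0 rises depended on the tool, since 4 matrix genes were called higher by DESeq2's Wald test (Col1a1, Col4a2, Fn1 and Thbs1) and 3 by edgeR with no low-count filter (Fn1, Thbs1 and Tnc). Without WT 1 or WT 2 the count of falls was 1, Lrrc15, and without WT 3 it was 3, with Col15a1 added, while Fn1 was called higher.

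**Figure D1:**
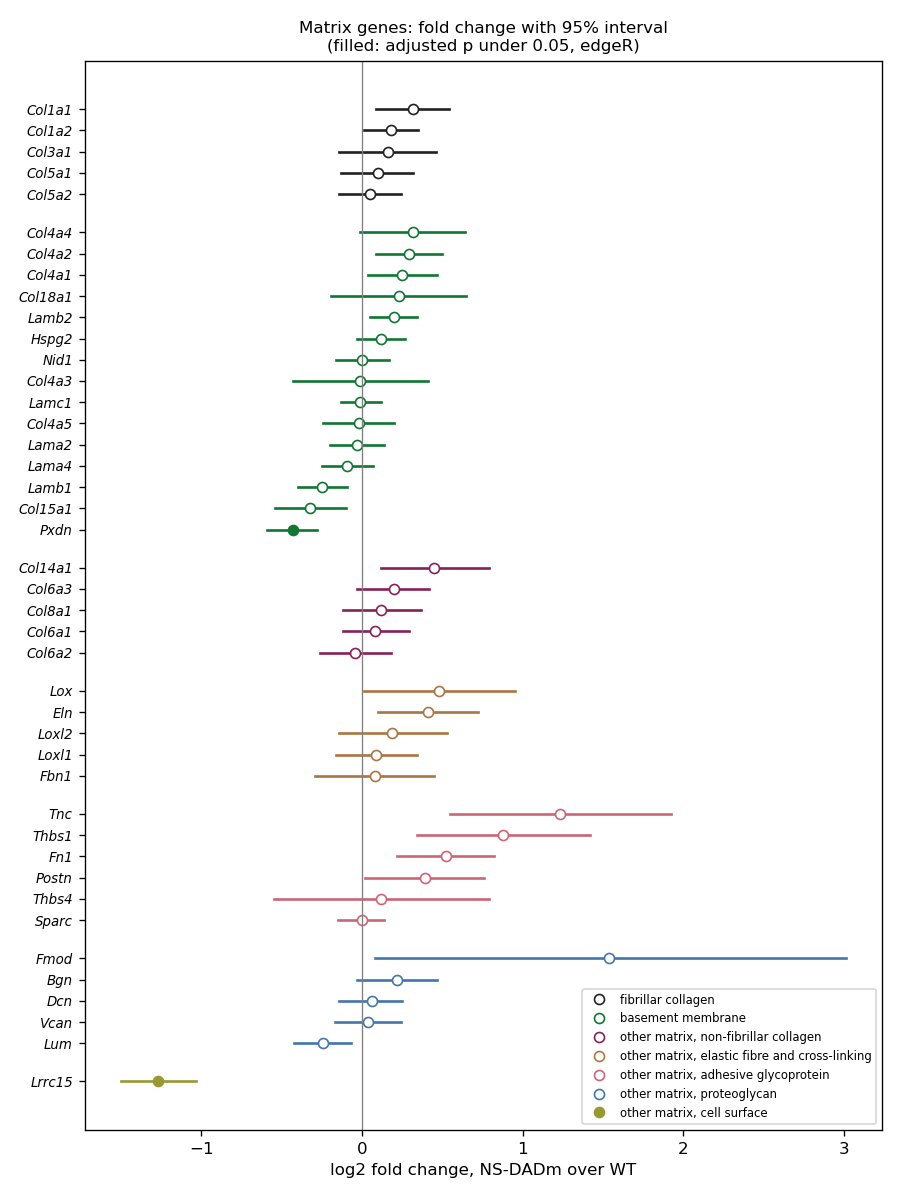
Log2 fold change of each matrix gene, NS-DADm over WT, with its 95% interval (horizontal axis), genes grouped by kind of matrix protein; filled points passed the test. Pxdn at -0.43 and Lrrc15 at -1.27 are the filled points, and the widest interval is that of Fmod, from 0.08 to 3.01.

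Lrrc15 (gene ID 74488) was the most changed matrix gene that passed the test. Its FPKM was 7.31, 6.95 and 5.67 in WT samples 1 to 3 and 2.72, 2.74 and 2.69 in NS-DADm samples 1 to 3. The NS-DADm samples were nearly equal and all lay below the lowest WT sample. The mean fell from 6.64 ± 0.862 to 2.72 ± 0.0252 FPKM (SD, n = 3 each), 2.40-fold (log2 fold change -1.27, SE 0.11, adjusted p = 0.000307, edgeR). Leaving out each sample in turn kept the call, with log2 fold changes from -1.38 to -1.19 and adjusted p up to 0.00387. The FPKM ratio gave a log2 difference of -1.38 within the libraries low in atrial transcripts and -1.07 within those high in them. As the groups of Lrrc15 did not overlap over all 6 samples, a negative sign in both sets was fixed and adds no support.

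Pxdn (gene ID 69675) had an FPKM of 13.51, 12.95 and 11.97 in WT samples 1 to 3 and of 9.30, 9.36 and 9.40 in NS-DADm samples 1 to 3. Here too the NS-DADm samples were close together and below every WT sample. The mean fell from 12.8 ± 0.779 to 9.35 ± 0.0503 FPKM (SD, n = 3 each), 1.35-fold (log2 fold change -0.43, SE 0.07, adjusted p = 0.0112, edgeR). The log2 difference in FPKM was -0.50 within the libraries low in atrial transcripts and -0.36 within the others, its sign again fixed by the lack of overlap. Pxdn missed the threshold without WT 1 (adjusted p = 0.0587) or without WT 2 (0.0703).

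The 250 bases before the annotated starts of both genes that passed the test are shown because no other matrix gene passed it, from RefSeq on GRCm38.p6. The Lrrc15 sequence lies at chr16:30283255-30283504 on the minus strand, and the Pxdn sequence at chr12:29937786-29938035 on the plus strand. Capitals mark matches on either strand to 5 motifs, none of which overlap here: GGGCGG (the GC box), CCAAT (the CCAAT box), TATAAA (the TATA box), AGGTCA (the nuclear receptor half-site) and TGANTCA (the AP-1 site).
Lrrc15: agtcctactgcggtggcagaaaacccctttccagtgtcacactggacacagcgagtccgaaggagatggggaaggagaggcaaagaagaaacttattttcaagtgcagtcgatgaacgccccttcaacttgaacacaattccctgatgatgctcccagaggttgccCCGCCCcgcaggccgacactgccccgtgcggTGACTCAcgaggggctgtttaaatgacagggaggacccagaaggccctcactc
Pxdn: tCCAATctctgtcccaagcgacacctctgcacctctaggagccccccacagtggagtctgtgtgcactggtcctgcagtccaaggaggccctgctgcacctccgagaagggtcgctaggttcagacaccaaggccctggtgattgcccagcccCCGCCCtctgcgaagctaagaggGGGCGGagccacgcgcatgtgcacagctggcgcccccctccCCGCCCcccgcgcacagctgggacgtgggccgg
The Lrrc15 sequence held 1 GC box and 1 AP-1 match, and the Pxdn sequence 3 GC boxes and 1 CCAAT box. Neither held a TATA box or a half-site in these letters. A match is a description of letters, not a bound site. Of 32851 promoter sequences of this length in the table, 32.7% held the GC box, 33.8% the CCAAT box, 12.4% the TATA box, 14% the half-site and 6.75% the AP-1 site. Such sequences were available for 28 of the 42 matrix genes, and the GC box was found in those of 17 of them. Of the 32 sequences of these genes 59.4% held the GC box and 28.1% the CCAAT box. The TATA box was in 12.5% of them, the half-site in 6.25% and the AP-1 site in 6.25%. The TATA box was found for Col3a1, Postn and Tnc, the half-site for Col4a4 and Postn, and the AP-1 site for Col6a1 and Lrrc15.

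Levels between genes can be compared on the FPKM scale, which takes gene length into account. In WT myocardium the most abundant matrix RNA was Dcn, for decorin, at 394.3 ± 40.1 FPKM (SD, n = 3), followed by Bgn (biglycan) at 180.6 ± 16.2 and Sparc, a collagen-binding glycoprotein, at 173.3 ± 10.8. Bgn and Sparc did not differ beyond their spread. Lum, Lamb2, Col4a1, Col4a2, Hspg2 and Col3a1 followed, from 68.5 down to 37.8 FPKM. At the low end stood Lox at 0.80 ± 0.197, Col4a3 at 0.76 ± 0.119, Fmod at 0.59 ± 0.575 and Tnc at 0.18 ± 0.0252 FPKM; the first 3 of these did not differ beyond their spread. Tnc lay under the FPKM that 3 counts give a gene of 1 kilobase (0.268 to 0.295 in the WT libraries), but it is a long gene, with 40 counts over the WT samples.

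**Figure D2:**
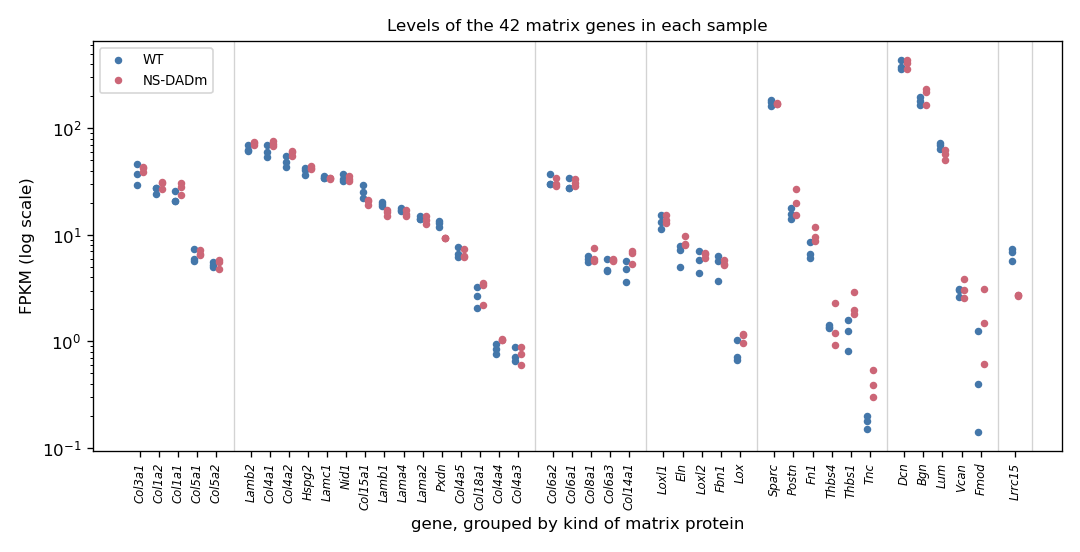
FPKM of the 42 matrix genes on a log scale (vertical axis) in each WT and NS-DADm sample (points), genes grouped by kind of matrix protein and ordered by WT level. Dcn is highest, at 358.78 to 439.49 FPKM over the 6 samples, and Tnc and Fmod are lowest in WT.

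None of the 5 fibrillar collagen genes was called, and all 5 had a positive log2 fold change, from 0.05 for Col5a2 to 0.32 for Col1a1, with a median of 0.16. Col3a1, the chain of type III collagen, was the most abundant, with an FPKM of 46.40, 37.61 and 29.37 in WT samples 1 to 3 and 43.12, 38.93 and 42.51 in NS-DADm samples 1 to 3. Its highest and lowest samples were both WT (log2 fold change 0.16, SE 0.13, adjusted p = 0.586, 95% interval of the fold 0.91 to 1.37). For the chains of type I collagen, Col1a1 stood at 25.54, 20.66 and 20.97 FPKM in WT and 28.18, 23.81 and 30.36 FPKM in NS-DADm samples 1, 2 and 3. The groups overlapped, since WT 1 was above NS-DADm 2 (fold 1.24, interval 1.07 to 1.45, adjusted p = 0.127). Col1a2 stood at 27.48, 24.03 and 27.82 FPKM in WT and 30.42, 26.72 and 31.50 FPKM in NS-DADm, again with overlap (fold 1.13, interval 1.01 to 1.28, adjusted p = 0.24). Col5a1 and Col5a2, the type V chains that start fibril assembly, differed by less, with fold intervals of 0.91 to 1.25 and 0.90 to 1.18. The interval of the fold lay within 1.5-fold for all 5 genes. The summed FPKM of the class was 88.9 to 112.4 in WT and 100.8 to 116.6 in NS-DADm. The class median was 0.02 without WT 3, the WT library with the least Col3a1.

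Basement membrane genes split in direction, with 7 of 15 positive, a median log2 fold change of -0.01 and only Pxdn called. The main collagen IV chains, Col4a1 and Col4a2, had positive fold changes that did not pass. Col4a1 had an FPKM of 70.48, 60.27 and 53.90 in WT samples 1 to 3 and 71.70, 76.56 and 68.42 in NS-DADm samples 1 to 3, where WT 1 lay above NS-DADm 3 (fold 1.19, interval 1.03 to 1.39, adjusted p = 0.205). Col4a2 had 54.69, 48.27 and 43.11 FPKM in WT and 59.63, 61.48 and 55.06 FPKM in NS-DADm, with no overlap (fold 1.23, interval 1.06 to 1.41, adjusted p = 0.12). With the atrial score as a covariate both were called, at adjusted p = 0.0343 for Col4a1 and 0.0192 for Col4a2. These chains form the common collagen IV trimer and are encoded by neighbouring genes on opposite strands. The minor chains were low: Col4a4 stood at 0.77, 0.84 and 0.94 FPKM in WT and 1.06, 1.03 and 1.03 FPKM in NS-DADm (adjusted p = 0.288), while Col4a3, its neighbour, overlapped fully at 0.60 to 0.89 FPKM over all samples. Col4a5 stood at 6.80 ± 0.796 and 6.64 ± 0.608 FPKM (SD, n = 3 each).

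Collagens XV and XVIII, which carry an antiangiogenic fragment at their end and lie at the outer face of basement membranes, had fold changes of opposite sign. Col15a1 had an FPKM of 29.51, 25.50 and 22.24 in WT samples 1 to 3 and 21.32, 20.59 and 19.10 in NS-DADm samples 1 to 3. Each NS-DADm sample was below each WT sample, and the gene did not pass (log2 fold change -0.32, SE 0.10, adjusted p = 0.121; 0.0306 without WT 3). Col18a1 overlapped, at 2.65 ± 0.57 and 3.05 ± 0.723 FPKM (SD, n = 3 each).

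Among laminin chains, which assemble as trimers of an alpha, a beta and a gamma chain, the beta chains Lamb1 and Lamb2 had fold changes of opposite sign. Lamb2 had the highest mean of the basement membrane genes in WT, where it and Col4a1 did not differ beyond their spread, with 60.76, 62.90 and 69.24 FPKM in WT samples 1 to 3 and 74.57, 69.67 and 73.55 FPKM in NS-DADm samples 1 to 3. The lowest NS-DADm sample was just above the highest WT sample (fold 1.15, interval 1.04 to 1.27, adjusted p = 0.14). Lamb1 had 20.31, 18.61 and 19.65 FPKM in WT and 17.12, 16.36 and 15.06 FPKM in NS-DADm, with no overlap (fold 0.84, interval 0.76 to 0.94, adjusted p = 0.0926). Lama2, the alpha chain of muscle laminin, Lama4, that of vessels, and Lamc1, the common gamma chain, overlapped between the groups, with fold intervals of 0.87 to 1.10, 0.84 to 1.05 and 0.91 to 1.09. Nid1 (nidogen) had a fold interval of 0.89 to 1.13 and Hspg2 (perlecan) of 0.98 to 1.21. Over the class, the interval lay within 1.5-fold for 12 of 15 genes.

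**Figure D3:**
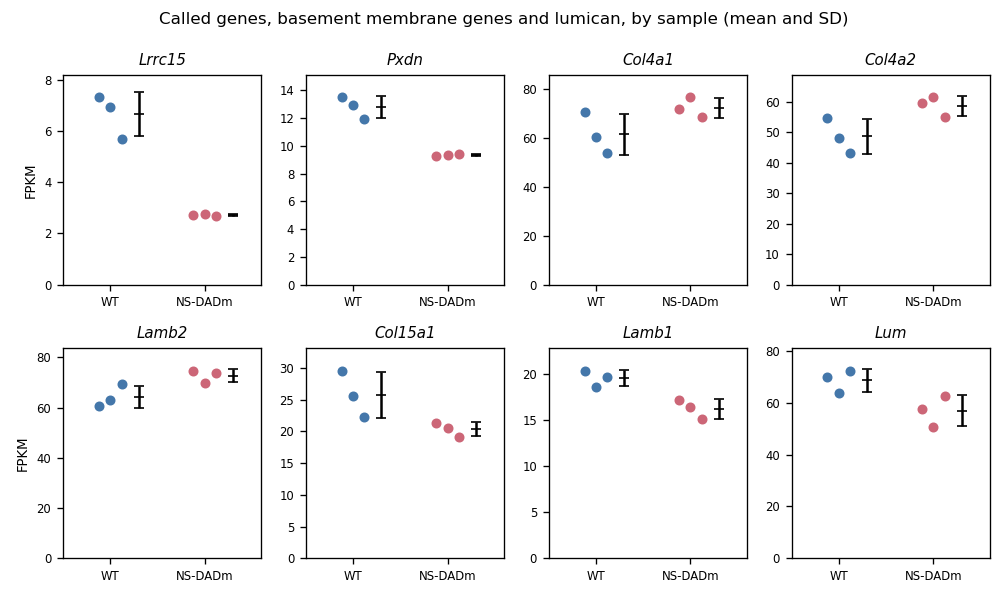
FPKM (vertical axis, from 0) of 8 matrix genes in the 3 WT and 3 NS-DADm samples (points), with mean and SD beside them. Lrrc15 and Pxdn passed the test; Col4a2 and Lamb2 lie higher without overlap in NS-DADm and Col15a1, Lamb1 and Lum lower, none of them past the threshold, and the groups of Col4a1 overlap.

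The 5 non-fibrillar collagens outside the basement membrane had 0 calls, 4 positive fold changes and a median of 0.12. Col14a1, which coats fibril surfaces, had an FPKM of 4.80, 3.60 and 5.73 in WT samples 1 to 3 and 6.73, 5.32 and 7.06 in NS-DADm samples 1 to 3. WT 3 was above NS-DADm 2 (fold 1.37, interval 1.09 to 1.73, adjusted p = 0.142). The type VI chains, which form beaded filaments around cells, stayed close: the fold interval was 0.92 to 1.22 for Col6a1, 0.84 to 1.13 for Col6a2 and 0.98 to 1.34 for Col6a3. Col8a1, a short-chain collagen of vessels, stood at 5.94 ± 0.411 and 6.38 ± 1.01 FPKM (SD, n = 3 each).

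Genes of elastic fibres and of cross-linking had 5 of 5 positive fold changes, a median of 0.19 and 0 calls. Eln, which encodes elastin, had an FPKM of 7.14, 5.04 and 7.78 in WT samples 1 to 3 and 9.73, 8.27 and 8.12 in NS-DADm samples 1 to 3. The groups did not overlap (fold 1.33, interval 1.07 to 1.65, adjusted p = 0.155). Lox, the lysyl oxidase that cross-links collagen and elastin, was low, at 0.67, 0.71 and 1.03 FPKM in WT and 1.18, 0.97 and 1.16 FPKM in NS-DADm, with WT 3 above NS-DADm 2 (fold 1.39, interval 1.01 to 1.93, adjusted p = 0.27). Its relatives Loxl1 and Loxl2 had fold intervals of 0.89 to 1.27 and 0.91 to 1.44, and Fbn1, the microfibril protein fibrillin, of 0.82 to 1.37.

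The 6 adhesive glycoproteins had 5 positive fold changes, 0 calls and the highest median of the classes, 0.46. Fn1 (fibronectin), the scaffold on which collagen assembles, had an FPKM of 6.64, 6.04 and 8.65 in WT samples 1 to 3 and 9.59, 8.83 and 11.85 in NS-DADm samples 1 to 3. Every NS-DADm sample was above every WT sample (fold 1.43, interval 1.17 to 1.76, adjusted p = 0.0703). Tnc (tenascin C) had 0.15, 0.18 and 0.20 FPKM in WT and 0.39, 0.30 and 0.54 FPKM in NS-DADm, also without overlap, from 40 counts over the WT and 108 over the NS-DADm samples (fold 2.35, interval 1.47 to 3.80, adjusted p = 0.0609). Thbs1 (thrombospondin 1, an activator of latent TGF-beta) had 1.6, 0.81 and 1.24 FPKM in WT and 2.89, 1.80 and 1.97 FPKM in NS-DADm, without overlap (fold 1.84, interval 1.27 to 2.68, adjusted p = 0.0874). These 3 genes lay close to the threshold. Apart from the replicate block and the fits by atrial set, Fn1 was called by DESeq2's Wald test (adjusted p = 0.00356), with no low-count filter (0.0316), with the atrial covariate (0.0378) and without WT 3 (0.0189), Thbs1 by DESeq2's Wald test (0.0173) and with no filter (0.0449), and Tnc with no filter (0.0494).

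Postn (periostin, made by activated fibroblasts and in valves) had an FPKM of 14.19, 15.79 and 17.99 in WT samples 1 to 3 and 19.84, 15.53 and 26.91 in NS-DADm samples 1 to 3. NS-DADm 2 lay within the WT range (fold 1.31, interval 1.01 to 1.70, adjusted p = 0.249). Sparc, the third most abundant matrix gene, had 182.76, 175.76 and 161.50 FPKM in WT and 168.87, 171.13 and 170.66 FPKM in NS-DADm, all within the WT range (fold interval 0.90 to 1.10). Thbs4 (thrombospondin 4) had a wide fold interval, 0.68 to 1.73, with both its lowest and its highest sample in NS-DADm (0.92 and 2.31 FPKM).

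**Figure D4:**
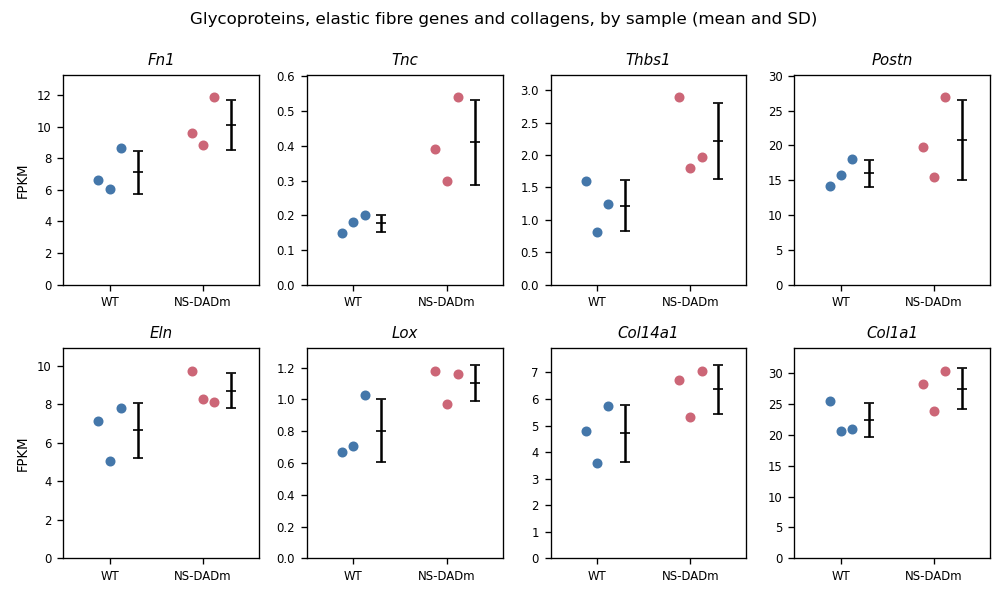
FPKM (vertical axis, from 0) of 8 matrix genes in the 3 WT and 3 NS-DADm samples (points), with mean and SD beside them. Groups do not overlap for Fn1, Tnc, Thbs1 and Eln and overlap for Postn, Lox, Col14a1 and Col1a1; none of the 8 passed the test.

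Of the 5 proteoglycans none was called, and Dcn and Bgn, the most abundant, overlapped between the groups. Dcn had 380.40, 362.94 and 439.49 FPKM in WT samples 1 to 3 and 414.09, 358.78 and 436.49 FPKM in NS-DADm samples 1 to 3, with full overlap (fold interval 0.91 to 1.19). Bgn had 179.53, 164.93 and 197.28 FPKM in WT and 221.36, 165.65 and 232.96 FPKM in NS-DADm, where NS-DADm 2 lay at the low end of WT (fold interval 0.98 to 1.38, adjusted p = 0.345). Lum (lumican), a small proteoglycan of collagen fibrils whose gene neighbours Dcn, had 69.79, 63.61 and 72.24 FPKM in WT and 57.60, 50.61 and 62.53 FPKM in NS-DADm. The groups of Lum did not overlap (fold 0.84, interval 0.75 to 0.95, adjusted p = 0.132; 0.03 with the atrial covariate). Fmod (fibromodulin, typical of tendon and valve) was low and variable, at 0.40, 0.14 and 1.24 FPKM in WT and 1.5, 0.62 and 3.12 FPKM in NS-DADm (fold 2.91, interval 1.06 to 8.06, adjusted p = 0.251). The fold of Fmod rested on single libraries: its log2 fold change of 1.54 became 2.67 without WT 3, 0.83 without NS-DADm 3 and 0.83 with the atrial covariate. Vcan (versican) had a fold interval of 0.89 to 1.18.

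Ratios of chains that share a fibre or a protein were taken within each sample, in 5 pairs. The ratio of Col4a1 to Col4a2 in FPKM was 1.25 to 1.29 in WT and 1.20 to 1.25 in NS-DADm, although Col4a1 itself ranged from 53.90 to 76.56 FPKM. Before rounding these ratios did not overlap either, by a narrow margin (log2 difference -0.04). Col6a1 to Col6a2, neighbours on chromosome 10, stood at 0.91 to 0.93 in WT and 0.99 to 1.02 in NS-DADm, without overlap (log2 difference 0.12). Col4a3 to Col4a4 stood at 0.86 to 0.95 and 0.58 to 0.85, also without overlap, a log2 difference of -0.32. For Col1a1 to Col1a2 the ratio was 0.75 to 0.93 and 0.89 to 0.96, and for Col1a1 to Col3a1 0.55 to 0.71 and 0.61 to 0.71, with overlap in both. In the exact two-sided permutation test over samples, 3 pairs reached p = 0.1, the smallest that 3 against 3 samples allow, and the other 2 gave 0.3 (adjusted 0.167 and 0.3 over the 5 pairs), so this design cannot pass the threshold.

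At the level of transcripts, 62 models of the 42 genes were listed, 58 were tested and 1 was called, the only model of Lrrc15 (log2 fold change -1.27, SE 0.12, adjusted p = 0.0482, edgeR), against 0.0972% of 17498 tested transcripts. At an unadjusted p under 0.05 there were 13 of the 58 tested models, against 1961 of 17498 tested transcripts (11.2%). Leaving out any 1 sample ended the call of the Lrrc15 model. A single model stood for 31 of the genes. Pxdn's only model had the same fold change as the gene (-0.43) and missed the threshold (adjusted p = 0.0983). Among genes with several models, the main Postn model NM_001198766 had 9.14, 10.13 and 9.20 FPKM in WT samples 1 to 3 and 12.62, 12.10 and 15.11 FPKM in NS-DADm samples 1 to 3. Its groups did not overlap, unlike those of the whole gene (log2 fold change 0.51, SE 0.10, adjusted p = 0.179). The Fn1 model NM_001276411, which had the smallest p of the tested Fn1 models, had 0.28, 0.78 and 0.80 FPKM in WT and 1.74, 1.54 and 1.80 FPKM in NS-DADm. It made up 4.22% to 12.9% of the gene in WT and 15.2% to 18.1% in NS-DADm (adjusted p = 0.273, edgeR). The main Fn1 model, NM_001276410, made up 44.4% to 81.2% and 63.3% to 69.6% (log2 fold change 0.50, adjusted p = 0.636). The models NM_001276408, NM_001276409 and NM_010233 had log2 fold changes of -0.25, -0.16 and -0.01. Models of 1 gene share most of their sequence, and such shares rest on how the authors' estimator divided the reads.

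Several matrix genes moved with the atrial transcripts. In 10 of the 42, against 1532 of 13130 tested genes (11.7%), the 3 atrial-rich libraries did not overlap with the others, whatever the genotype. Col1a2, Col4a3, Col18a1, Col14a1, Lox, Postn, Dcn, Bgn and Fmod were higher in the atrial-rich libraries, and Sparc lower. Over all tested genes 7.62% were higher in this way and 4.05% lower. Fmod, for example, had 0.14 to 0.62 FPKM in the atrial-poor and 1.24 to 3.12 FPKM in the atrial-rich libraries. Within the atrial-poor libraries the log2 difference of NS-DADm 2 from the WT samples was 0.05 for Postn, -0.06 for Bgn and 0.04 for Col1a1, and within the atrial-rich libraries that of NS-DADm 1 and 3 from WT 3 was 0.38, 0.20 and 0.48. The sign was the same in both sets for 26 of the 42 genes, or 61.9%, which is also the share over all tested genes with reads in each arm (61.9%). The 18 genes with an unadjusted p under 0.05 were among the 26, but those were picked by their difference in the same 6 libraries. For Fn1, Col4a2 and Lamb1 the genotypes did not overlap over all 6 libraries, which fixes the same sign in both sets. Fn1 (0.48 and 0.31), Col4a2 (0.26 and 0.41) and Lamb1 (-0.25 and -0.29) had these log2 differences in the atrial-poor and the atrial-rich set. These FPKM ratios carry no test; in edgeR fits of each set, where 1 genotype has a lone sample, Fn1 (adjusted p = 0.000604) and Col4a2 (0.0192) were called in the atrial-poor set and Lamb1 (0.216) was not, and no gene of the whole table was called in the atrial-rich set. The part of atrial tissue in the other results was not tested.

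**Figure D5:**
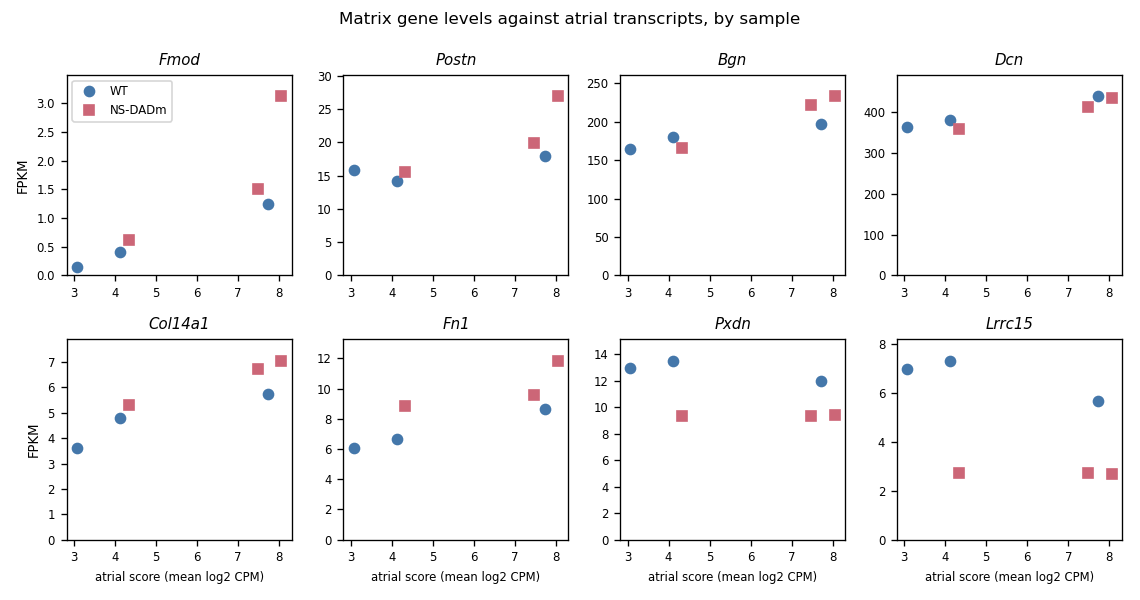
FPKM of 8 matrix genes (vertical axes, from 0) against the atrial score, the mean log2 CPM of 8 atrial genes, CPM being the count scaled to depth alone (horizontal axes), in each WT (circles) and NS-DADm (squares) sample. Fmod, Postn, Bgn, Dcn and Col14a1 are higher in the 3 libraries with scores over 7, whereas for Lrrc15 and Pxdn the genotypes do not overlap over all samples.

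Markers of cell types found in heart tissue, those that make matrix among them, gave these levels. Of 10 fibroblast markers outside the matrix set 0 were called, with a median log2 fold change of -0.02 and a summed FPKM of 746.0 to 926.6 in WT and 665.9 to 927.9 in NS-DADm. Of 9 endothelial markers 0 were called (median -0.01; summed FPKM 326.7 to 358.4 and 329.5 to 347.2). All 6 pericyte markers had negative fold changes and 0 were called (median -0.21), with a summed FPKM of 309.1 to 346.3 in WT and 248.5 to 288.8 in NS-DADm, which did not overlap. Of 7 tested activated-fibroblast markers 1 rose, Ctgf, and 6 had positive fold changes (median 0.56). Lrrc15, which fell, is not in this list. The summed FPKM of the 8 in the list was 88.2 to 135.5 in WT and 149.1 to 188.4 in NS-DADm, most of it Ctgf and Acta2. Cthrc1 was listed at 0 in NS-DADm 3. Macrophage markers rose in 4 of 10 and had positive fold changes in all 10 (median 0.39), with a summed FPKM of 290.3 to 323.6 and 373.1 to 430.9. Of 6 smooth muscle, 8 heart muscle, 4 endocardial and 5 erythroid markers 0 were called; the summed FPKM was 56.0 to 74.0 and 60.6 to 87.2 for smooth muscle, 22.6 to 56.5 and 32.8 to 63.8 for endocardium, and 6708 to 7970 and 3394 to 6680 for erythroid cells. Summed levels of 7 of these kinds of marker were higher in every atrial-rich than in every atrial-poor library. They were those of fibroblasts (870.6 to 927.9 against 665.9 to 807.4 FPKM), smooth muscle (66.6 to 87.2 against 56.0 to 63.1), endocardium (54.8 to 63.8 against 22.6 to 32.8) and, by a narrow margin, endothelium (337.9 to 358.4 against 326.7 to 337.7). The others were fat (44.2 to 230.6 against 3.05 to 8.76), valve and tendon-like cells (28.2 to 47.1 against 14.6 to 21.4) and epicardium (12.9 to 23.9 against 7.06 to 11.5), each with 0 called between the genotypes. Single genes weighed heavily in these sums. Cytl1 gave 30.75 of the 39.8 FPKM of valve and tendon-like markers in WT 3. Tcf21, also in the fibroblast list, gave 5.31 of the 7.06 FPKM of epicardial markers in WT 2. Most of the fibroblast sum was Gsn, with 737.10 of 926.6 FPKM in WT 3. Gsn, Dpt and Pi16 were each higher in every atrial-rich library, whereas Pdgfra (8.63 to 9.18 against 7.96 to 9.07 FPKM) and Cd248 overlapped. At 0 in some sample were Plin1 and Ucp1 of fat, Tnmd of tendon, and Upk1b, Upk3b, Msln and Krt19 of epicardium. Schwann cell markers summed to 7.40 to 8.58 and 4.66 to 7.12 FPKM, without overlap, with 0 called. The part of these cell types in the matrix results was not tested.

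Genes that process collagen or receive signals from the matrix changed singly. Of 20 tested genes of collagen processing, 2 rose and 1 fell, with a median log2 fold change of 0.08. Fkbp10, an isomerase of the endoplasmic reticulum that folds procollagen, fell from 18.3 ± 2.07 to 13.2 ± 0.447 FPKM (SD, n = 3 each; adjusted p = 0.0261). P4hb, a subunit of prolyl hydroxylase and a general disulfide isomerase, rose 1.23-fold, from 96.58 to 101.65 FPKM over the WT samples to 118.53 to 120.91 FPKM over the NS-DADm samples (adjusted p = 0.0197). Adamts3, a procollagen N-proteinase, rose 1.47-fold, from 1.02 to 1.05 FPKM to 1.44 to 1.57 FPKM (adjusted p = 0.0399). Of 24 tested matrix receptors 1 rose and 1 fell, with a median of 0.07. Itgb5, the integrin beta chain of a vitronectin receptor, rose from 35.7 ± 0.147 to 54.8 ± 4.62 FPKM (adjusted p = 0.00112), and Sdc2, the heparan sulfate proteoglycan syndecan 2, fell from 26.7 ± 0.829 to 20.5 ± 0.435 FPKM (adjusted p = 0.0161; SD, n = 3 each). Leaving out single samples ended the calls of P4hb and Fkbp10 in 5 of 6 fits, of Adamts3 in 6 and of Sdc2 in 2, and of Itgb5 in 0 (adjusted p up to 0.106 for P4hb, 0.0902 for Fkbp10, 0.13 for Adamts3, 0.0962 for Sdc2 and 0.011 for Itgb5). Of 26 further collagen genes listed, 13 were tested and 0 called, 2 at an unadjusted p under 0.05. The nearest was Col6a6, a type VI chain, named after its values were seen, with 1.24, 1.10 and 1.10 FPKM in WT and 0.77, 0.72 and 0.59 FPKM in NS-DADm (adjusted p = 0.0515). Of 6 further laminin genes 4 were tested and 0 called, 1 at an unadjusted p under 0.05.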

How the data were processed

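Myocardial RNA was sequenced in 3 WT and 3 NS-DADm samples. Per the file headers, the authors deposited expected counts (estimated reads per gene or transcript) and FPKM, the count scaled by feature length and mapped reads. The submitters' processing notes name the aligner HISAT; the sources used here give neither its version nor the estimator, build or annotation. Per the deposited tables the lowest FPKM listed was 0.01, and a gene not listed in a sample was taken as 0. The 1 row without a symbol (at most 0.00032% of counts) was left out.

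Expected counts were rounded to whole numbers, filtered with filterByExpr, scaled by TMM and tested by quasi-likelihood in edgeR (version 4.0.16; R 4.3.3) on all genes, or all transcripts; fold changes are NS-DADm over WT. Standard errors and 95% intervals follow from the unshrunken coefficient and the test statistic. The biological coefficient of variation was 0.106. The tests were checked on simulated counts. No pair of samples was a duplicate (chi-square per gene 3.4 to 17.0). The labels number the replicates alike but state no pairing, so no block was used. Values per sample were given for genes past the threshold, those at an unadjusted p under 0.05 and the 3 most abundant of each class. Members, gene lists and markers were chosen with earlier results of these data known. Alternatives were DESeq2 (1.42.0) size factors and Wald test, other filters, limma (3.58.1) on log2 FPKM with pseudocounts of 1 and 0.1, a replicate block, an atrial covariate and leaving out each sample. Separate fits of the atrial-poor and atrial-rich libraries (divided at the midpoint of the score) were added after the data were seen.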

Additional observations from a re-analysis of the deposited data

How the results depend on the processing

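Over these alternatives Lrrc15 stayed lower and past the threshold in every fit except that of the 3 atrial-rich libraries, where no gene was called (log2 fold change -1.04, adjusted p = 0.59); Pxdn was lower in all fits and lost its call there and without WT 1 or WT 2. The number of matrix genes called, 2 in the main analysis, was 5 with no low-count filter (3 higher), 6 with DESeq2's Wald test (4 higher), 6 with the atrial covariate (3 higher), 12 with the replicate block (7 higher: Col1a1, Col4a2, Col14a1, Fn1, Thbs1, Tnc and Fmod; 5 lower: Col15a1, Lamb1, Lum, Pxdn and Lrrc15), and 1 to 4 without single samples (0 to 1 higher, 1 to 3 lower; 1 without WT 1 or WT 2, 4 without WT 3, which adds Fn1 and Col15a1). Same-numbered samples deviated together for replicates 2 and 3 (correlation 0.33 and 0.40) but not 1 (-0.05). These correlations cannot tell whether samples were paired, since WT 2 and NS-DADm 2 were both atrial-poor and WT 3 and NS-DADm 3 both atrial-rich. WT 1 and WT 2 both matched NS-DADm 2 best. The count over all genes, 420, was 538 with no filter, 539 with DESeq2's Wald test, 465 with the atrial covariate, 895 with the replicate block, 272 and 267 with limma at pseudocounts of 1 and 0.1, and 117 to 382 without single samples. In the fits within the atrial-poor libraries (NS-DADm 2 alone against WT 1 and WT 2, the lone sample being assumed to vary like the others) 8 matrix genes were called (4 higher and 4 lower), of 979 genes over the whole table. In the atrial-rich ones (WT 3 alone against NS-DADm 1 and 3) 0 were called in the table and among matrix genes. The Lrrc15 transcript lost its call with no filter, with the replicate block and without any 1 sample (0 calls in each).

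The median log2 fold change of all 42 genes ranged from 0.09 to 0.20 without single samples and was 0.03 in the atrial-poor and 0.19 in the atrial-rich libraries. For fibrillar collagens it ranged from 0.02 to 0.22 without single samples and was 0.01 in the atrial-poor ones; for basement membrane it ranged from -0.04 to 0.07 and was 0.05 and -0.06 in the atrial-poor and atrial-rich libraries; for other matrix it was 0.02 and 0.30 in them. Of matrix genes not called, 17 changed sign in some alternative, all with a log2 fold change of at most 0.23 in size in the main analysis and 0.54 in the alternatives. The cause of these differences was not tested. Depth limits Tnc, Fmod, Lox and Thbs4 most, with 40 to 139 counts over the WT samples.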
